A study of Homo sapiens with 6 samples.

Results

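The DNAJ or HSP40 co-chaperone family was described here through 42 of the 18806 genes in the deposited expression table. Its members were taken by name, as every gene called DNAJA, DNAJB or DNAJC with a number, apart from the endoplasmic reticulum proteins DNAJB9, DNAJB11 and DNAJC3. They comprised 4 DNAJA, 11 DNAJB and 27 DNAJC genes. Levels came from 6 bulk poly(A) RNA libraries of Mono-mac-6, a line grown from a human acute myeloid leukaemia that carries an MLL-AF9 fusion gene, and all 6 were made from 1 Cas9 single clone of that line. Cells that had received the METTL1 guide sgMETTL1.3 by lentivirus gave 2 libraries, cells that had received the METTL1 guide sgMETTL1.6 gave 2, and cells with the control guide sgNS gave 2. All were selected with blasticidin and hygromycin B and harvested 8 to 10 days after transduction. The deposited names of all 6 libraries also carry the tag EV, whose meaning was not taken up here. Every group came from the same clone, so differences between clones were not sampled. Nothing in the labels tells if replicates came from separate cultures, and so the p-values rest on the spread between these 6 libraries, part or all of which may be technical.

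Every member carries a J domain, a short helical segment that makes a partner HSP70 hydrolyse ATP and close on its client protein. Type A members also hold a zinc-binding region and a client-binding domain, type B members a glycine and phenylalanine rich stretch after the J domain, and type C members little but the J domain, often fused to parts that place them at one organelle or complex. HSP70 needs such a partner to pick its client, and so the mixture of J proteins in a cell sets which jobs its HSP70 pool does. METTL1 is the methyltransferase that, with its partner WDR4, makes N7-methylguanosine in tRNAs.

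The values are TPM, in which read numbers have been divided by transcript length and every library brought to 1 common total, so that levels of different genes can be compared. TPM holds no read depth, which is therefore unknown. Replicates differed by a median of 2.44% in sgMETTL1.3, 3.15% in sgMETTL1.6 and 2.42% in sgNS libraries over the 1742 genes that averaged 100 TPM or more. METTL1 itself, the targeted gene, had 18.3 and 16.6 TPM in the libraries labelled sgMETTL1.3 and 11.2 and 11.7 TPM in those labelled sgMETTL1.6, against 15.4 and 13.9 TPM in sgNS libraries. Its mRNA was therefore not lower in the libraries labelled sgMETTL1.3, where the log2 change was 0.24 (limma, adjusted p = 0.0111, and adjusted p = 0.116 without sgNS replicate 2 or without sgMETTL1.3 replicate 1). A cut by Cas9 need not lower an mRNA, so these values do not check the loss of the protein, and each direction below is drawn from the libraries as labelled. Of 10 myeloid markers, 8 had a mean of at least 1 TPM, and CD14 and CSF1R did not. The summed myeloid level was 9890 to 11500 TPM in guide libraries and 11600 to 12200 TPM in sgNS libraries, and LYZ alone made up nearly all of it. The other myeloid markers went both ways, with FCGR1A (log2 -0.84), ITGAM (-0.64), PTPRC (-0.52), MPO (-0.47) and CD68 (-0.37) lower with both guides, SPI1 (0.20) higher and CD33 (0.0050) not called. The 4 T cell markers were at 0 in every library, and the B cell, erythroid and fibroblast sums stayed at or below 2.67 TPM. The 4 epithelial markers summed to 12.8 to 13.5 TPM in guide libraries and 17 TPM in sgNS libraries, nearly all of it KRT18, while EPCAM and CDH1 were at or near 0. The part of these shifts in the results below was not tested.

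The promoters of DNAJA1, DNAJB1 and DNAJB6, 3 of the members that rose, are shown. Heat shock factors bind inverted repeats of a 3-base unit spaced by 2 bases. Each of these promoters holds at least a pair of such units. DNAJA4, which also rose, holds pairs as well but is not shown. The search was for the pair GAANNTTC or TTCNNGAA, each of which reads the same on both strands, and for the triple GAANNTTCNNGAA or its reverse complement TTCNNGAANNTTC, which contains both pairs. Each sequence runs from 250 bases before a RefSeq transcript start through the first 20 bases from it (RefSeq, GRCh38.p14), with matches in capitals. DNAJA1 is at chr9:33025023-33025292 on the plus strand. DNAJB1 is at chr19:14518378-14518647 on the minus strand, and of its 3 annotated starts the one with most matches is shown. DNAJB6 is at chr7:157336754-157337023 on the plus strand.
DNAJA1: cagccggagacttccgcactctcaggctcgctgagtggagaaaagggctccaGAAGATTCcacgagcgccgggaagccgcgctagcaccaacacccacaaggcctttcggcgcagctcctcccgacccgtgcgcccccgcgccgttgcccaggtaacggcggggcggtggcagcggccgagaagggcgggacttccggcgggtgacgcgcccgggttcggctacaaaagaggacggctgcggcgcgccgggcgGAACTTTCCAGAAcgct
DNAJB1: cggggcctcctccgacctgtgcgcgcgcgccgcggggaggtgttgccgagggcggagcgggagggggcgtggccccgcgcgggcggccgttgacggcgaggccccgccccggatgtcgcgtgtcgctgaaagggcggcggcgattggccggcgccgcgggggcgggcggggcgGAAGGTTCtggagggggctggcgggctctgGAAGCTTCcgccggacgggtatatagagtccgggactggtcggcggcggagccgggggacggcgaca
DNAJB6: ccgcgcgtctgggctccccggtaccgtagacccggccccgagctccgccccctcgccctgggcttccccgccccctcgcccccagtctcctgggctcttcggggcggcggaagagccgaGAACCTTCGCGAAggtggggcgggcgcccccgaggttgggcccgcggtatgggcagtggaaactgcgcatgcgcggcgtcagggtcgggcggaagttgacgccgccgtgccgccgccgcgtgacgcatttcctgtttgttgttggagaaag

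Triples stood at bases 4 to 16 after the start in DNAJA1 and at bases -131 to -119 in DNAJB6, where the first base of the transcript is 1. DNAJB1 held 2 separate pairs, at bases -77 to -70 and -47 to -40. Of the 35116 promoter windows in the RefSeq table, searched over their whole length, 13.5% held a pair and 0.49% a triple. Of the 42 members, 37 had such a window, 8 of them held a pair and 2, DNAJA1 and DNAJB6, held a triple. The other holders of a pair were DNAJA4, DNAJB4, DNAJB7, DNAJC6 and DNAJC15. In the comparison of both guides with sgNS described next, 4 of the 11 members that rose and had a window held a pair (DNAJA1, DNAJA4, DNAJB1 and DNAJB6), as did 0 of 9 that fell and 2 of 11 that were not called. Counted in the same way per gene, 13.4% of all tested genes that rose held a pair, as did 13.7% of those that fell and 12.9% of those not called, and no test was made of the members' split. A match is only these letters in this window, and binding was not measured.

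The study asked which transcripts differ between cells with METTL1 guides and cells with the control guide. Within the DNAJ family the answer went both ways. DNAJA1, the most abundant type A member, and DNAJB1, the classic heat-inducible partner of HSP70, rose by more than any other tested member, followed by the mitochondrial DNAJC11. DNAJC5B and DNAJC1 fell by most among the tested members, and DNAJC12, whose level was too low for the test, is described further on. Of the 42 members, 34 had a mean of at least 1 TPM and were tested in a fit across 10911 genes on log2(TPM + 1), and over both guides 11 rose and 11 fell (limma, adjusted p under 0.05). That is 32.4% of the tested members in each direction, against 32.6% of all tested genes higher and 26.8% lower, and 64.7% in either direction, against 59.4%. The members' median log2 change was -0.0071, and that of all genes tested 0.023. The median size of change, either way, was 0.18 for the members and 0.16 for all genes tested. A called change of at least 0.5 in size on the log2 scale was reached by 4 members, DNAJA1, DNAJB1, DNAJC11 and DNAJC5B. The same was so for 8.37% of all genes tested. Fewer members were called lower when either sgNS library was left out, and fewer of all genes tested were called in those fits too. In GENCODE 29, 14 members have exons that overlap those of another coding gene, among them DNAJB1 with TECR, DNAJC11 with THAP3 and DNAJC2 with PMPCB on opposite strands and DNAJC4 with NUDT22, DNAJC9 with MRPS16 and DNAJB4 with GIPC2 on the same strand. Whether the counting used strand is not given in the sources used here, so reads of such pairs may be shared. In bulk RNA, fewer cells that hold a transcript and less of it in each cell cannot be told apart.

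**Figure D1:**
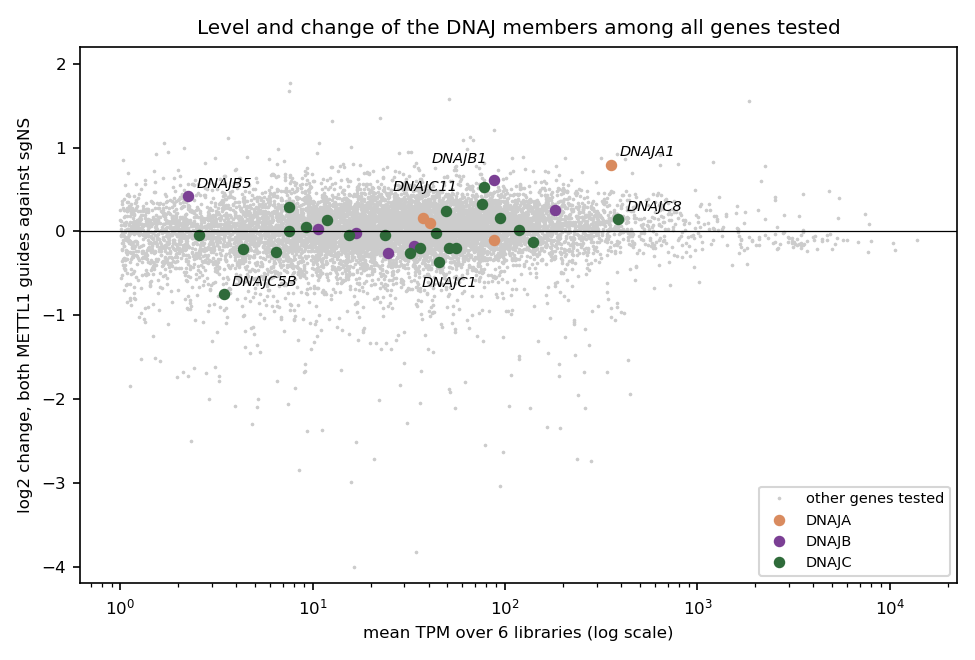
Mean level over the 6 libraries in TPM (horizontal, log scale) against the log2 change of both METTL1 guides over sgNS (vertical) for each of the 10911 genes tested, with the 34 DNAJ members coloured by subfamily. The members lie on both sides of 0, between -0.75 for DNAJC5B and 0.79 for DNAJA1, within the spread of the other genes.

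In total transcript, the family as a whole was higher with both guides. Its 42 genes summed to 2311 and 2279 TPM in sgMETTL1.3 libraries and 2261 and 2232 TPM in sgMETTL1.6 libraries, against 1990 and 1989 TPM in sgNS libraries. All 4 guide libraries were above both controls. Type A genes summed to 580 ± 16 TPM in sgMETTL1.3 libraries and 577 ± 3.16 TPM in sgMETTL1.6 libraries, against 403 ± 5.67 TPM in sgNS libraries (SD, n = 2 each). Type B genes summed to 376 ± 3.69 TPM for sgMETTL1.3 and 377 ± 7.0 TPM for sgMETTL1.6, against 319 ± 3.86 TPM in sgNS libraries. Type C genes summed to 1339 ± 3.08 TPM for sgMETTL1.3 and 1292 ± 10.2 TPM for sgMETTL1.6, against 1268 ± 1.35 TPM for sgNS. Most of the added transcript came from 2 genes, since the other 40 members summed to 1786 ± 7.77 TPM in sgMETTL1.3 libraries and 1730 ± 17 TPM in sgMETTL1.6 libraries, against 1687 ± 5.58 TPM in sgNS libraries. DNAJA1 made up 17.5% to 18.6% of the family's TPM in guide libraries and 11.7% and 12.2% in sgNS libraries. No test was made of these sums.

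**Figure D2:**
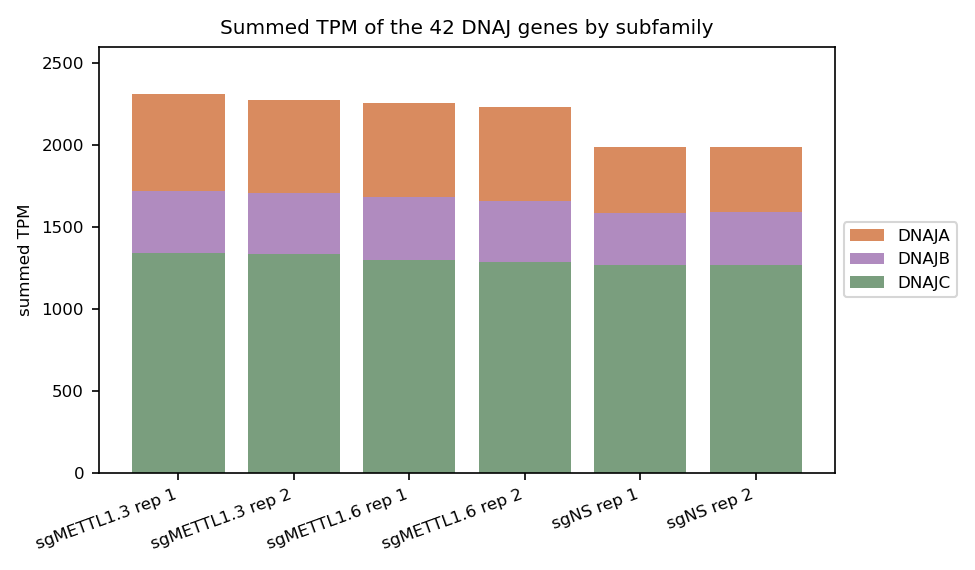
Summed TPM (vertical, from 0) of the 42 DNAJ genes in each library, stacked by subfamily with type A on top; sgMETTL1.3 and sgMETTL1.6 libraries stand left of the sgNS libraries. Totals run from 2232 to 2311 TPM in the 4 guide libraries and are 1990 and 1989 TPM in the controls, and the type A part widens most.

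Averaged over all 6 libraries, 5 members were above 100 TPM. DNAJC8, a protein found with the splicing machinery, was highest at 388 TPM. DNAJA1 followed at 354.5 TPM, then DNAJB6 at 181 TPM, the HSP70 and HSP90 adaptor DNAJC7 at 139 TPM and the vesicle protein DNAJC5 at 118 TPM. In sgNS libraries DNAJC8 stood above DNAJA1, with 364 and 361 TPM for DNAJC8 and 242 and 233 TPM for DNAJA1. In guide libraries the levels of the same pair overlapped, at 396 to 406 TPM for DNAJC8 and 398 to 420.2 TPM for DNAJA1.

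The type A members of the cytosol carry newly made and misfolded proteins to HSP70. DNAJA1 (ENSG00000086061.15, plus strand of chromosome 9, 33025211 to 33039907 in GRCh38) had 419 and 398 TPM in sgMETTL1.3 libraries and 420.2 and 415 TPM in sgMETTL1.6 libraries, against 242 and 233 TPM in sgNS libraries. The groups did not overlap, which was so, in the higher direction, for 32.9% of all genes tested. The log2 change over both guides was 0.79 ± 0.030 (SE, limma, adjusted p = 1.83e-10), a 1.73-fold rise. GENCODE 29 lists 6 pseudogenes of DNAJA1, and reads shared with them could shift its estimate. DNAJA4, its close relative, had 40.4 and 37.4 TPM with sgMETTL1.3 and 39.9 and 38.2 TPM with sgMETTL1.6, against 34.2 and 35.5 TPM in sgNS libraries. The rise was small, with every guide library above both controls (log2 0.16 ± 0.046, SE, limma, adjusted p = 0.0095), and it did not pass without sgNS replicate 1 (log2 0.13, adjusted p = 0.0998).

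DNAJA2, the other main cytosolic type A protein, was not called over both guides. It had 43.2 and 42.6 TPM in sgMETTL1.3 libraries and 41.6 and 38.8 TPM in sgMETTL1.6 libraries, against 38.8 and 38.4 TPM in sgNS libraries (log2 0.10, limma, adjusted p = 0.055). One sgMETTL1.6 library equalled a control, and DNAJA2 did pass without that library, sgMETTL1.6 replicate 2 (log2 0.13, adjusted p = 0.0205), and with the replicate number as a block (adjusted p = 0.0246). DNAJA3, the type A protein of the mitochondrial matrix, where it works with the HSP70 HSPA9, was the only type A member that fell. It had 89.4 and 90.9 TPM with sgMETTL1.3 and 77.7 and 83.5 TPM with sgMETTL1.6, against 91.7 and 92.1 TPM in sgNS libraries. All 4 guide libraries lay below both controls, those of sgMETTL1.3 only just. DNAJA3 was called lower with sgMETTL1.6 (log2 -0.19, limma, adjusted p = 0.0029) and not with sgMETTL1.3 (log2 -0.027, adjusted p = 0.611). The call over both guides (log2 -0.11 ± 0.038, SE, limma, adjusted p = 0.0249) was lost in 6 of 15 alternatives. Among them, adjusted p was 0.104 without sgNS replicate 1, 0.121 without sgNS replicate 2, 0.0611 without sgMETTL1.3 replicate 1 and 0.0673 without sgMETTL1.6 replicate 1.

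Of the 7 tested type B members, 3 rose and 2 fell, or 71.4% called against 59.4% of all genes tested. DNAJB1 (ENSG00000132002.7, minus strand of chromosome 19, 14514770 to 14529770), which feeds HSP70 in the cytosol and nucleus and drives its disaggregase work, had 101 and 99.96 TPM in sgMETTL1.3 libraries and 98.5 and 99.5 TPM in sgMETTL1.6 libraries, against 64.3 and 65.1 TPM in sgNS libraries. Replicates differed by about 1 TPM or less and the groups stood far apart. The log2 change was 0.61 ± 0.033 (SE, limma, adjusted p = 6.66e-09), a 1.53-fold rise. DNAJB6 (ENSG00000105993.14, plus strand of chromosome 7, 157335381 to 157417439), which keeps polyglutamine and other aggregation-prone proteins soluble, had 191 and 189 TPM with sgMETTL1.3 and 195 and 189 TPM with sgMETTL1.6, against 156 and 165 TPM in sgNS libraries. It rose by a log2 change of 0.25 ± 0.033 (SE, limma, adjusted p = 2.48e-05), with every guide library above both controls.

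DNAJB5, a relative of DNAJB1 at a far lower level, had 2.41 and 3.02 TPM in sgMETTL1.3 libraries and 2.47 and 2.31 TPM in sgMETTL1.6 libraries, against 1.52 and 1.79 TPM in sgNS libraries. Its log2 change was 0.42 ± 0.097 (SE, limma, adjusted p = 0.0023), and 0.18 with a pseudocount of 5, since that scale compresses low values. DNAJB4, another relative of DNAJB1, was not called, with 14.8 and 16 TPM for sgMETTL1.3 and 18.8 and 17.2 TPM for sgMETTL1.6, against 17.6 and 16.2 TPM for sgNS (log2 -0.018, limma, adjusted p = 0.814). DNAJB2, known from neurons, where it passes clients to the proteasome, had 11.2 and 11.7 TPM with sgMETTL1.3 and 10.5 and 9.33 TPM with sgMETTL1.6, against 10.4 and 10.6 TPM in sgNS libraries. Its groups overlapped (log2 0.023, adjusted p = 0.771).

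DNAJB12 and DNAJB14 sit in the endoplasmic reticulum membrane with their J domain in the cytosol and help to remove misfolded membrane proteins, and both fell. DNAJB12 had 34.5 and 32.5 TPM in sgMETTL1.3 libraries and 29.5 and 32.2 TPM in sgMETTL1.6 libraries, against 35.6 and 37.2 TPM in sgNS libraries (log2 -0.18 ± 0.049, SE, limma, adjusted p = 0.0075). DNAJB14 had 22.4 and 20.4 TPM with sgMETTL1.3 and 26.5 and 22.5 TPM with sgMETTL1.6, against 30.1 and 25.2 TPM in sgNS libraries (log2 -0.26 ± 0.075, SE, adjusted p = 0.0095). Taken singly, only sgMETTL1.6 gave a call for DNAJB12 (log2 -0.23, limma, adjusted p = 0.004, against 0.0895 with sgMETTL1.3). Only sgMETTL1.3 gave one for DNAJB14 (log2 -0.35, limma, adjusted p = 0.0036, against 0.127 with sgMETTL1.6). Guides and controls overlapped for DNAJB14 but not for DNAJB12. Neither call held without 1 of the controls: DNAJB12 stood at log2 -0.15 (adjusted p = 0.0878) without sgNS replicate 2 and DNAJB14 at -0.14 (adjusted p = 0.213) without sgNS replicate 1. DNAJB14 also lost its call when genes of every level were tested (adjusted p = 0.0917).

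**Figure D3:**
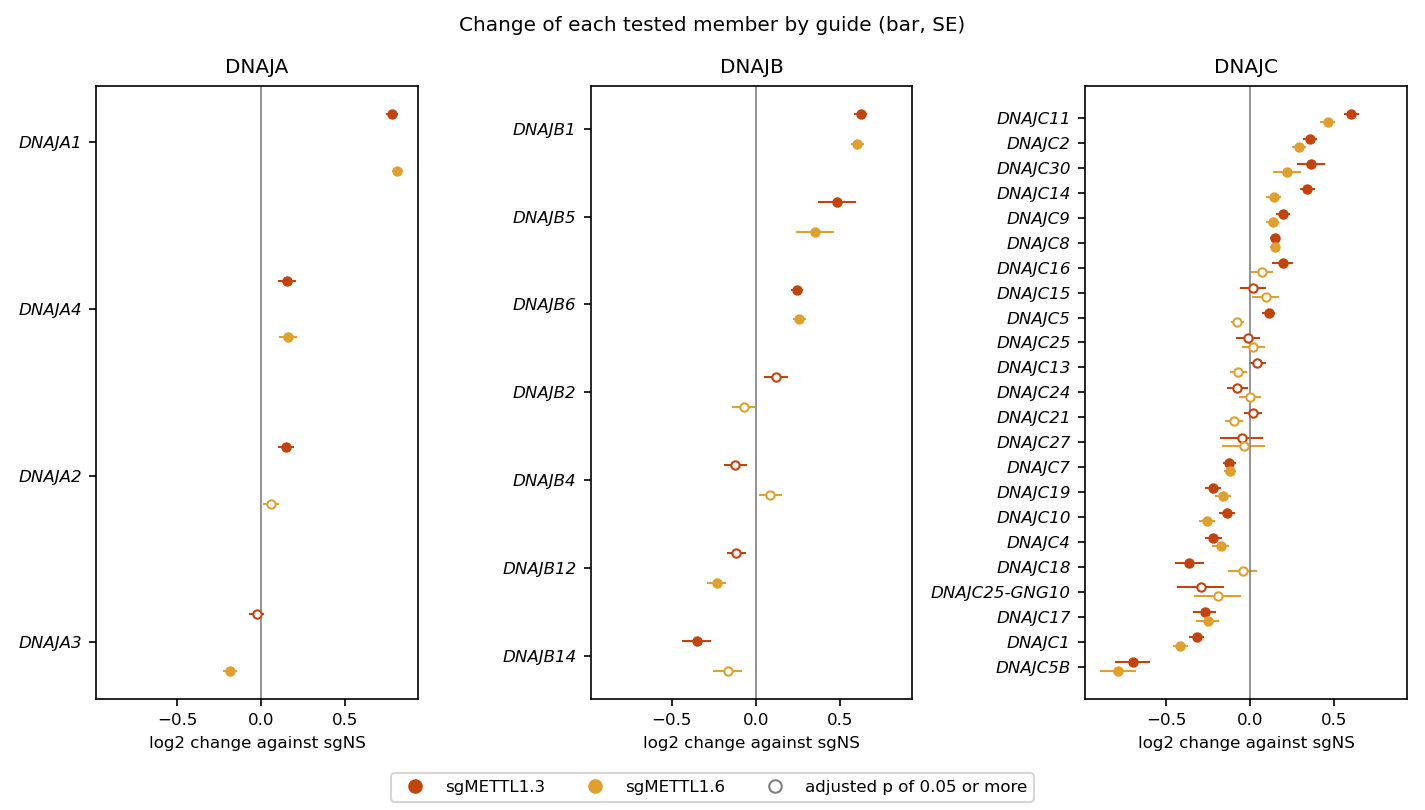
Log2 change against sgNS (horizontal) of each of the 34 tested members with sgMETTL1.3 and with sgMETTL1.6, by subfamily and sorted by the change over both guides. Bars are the SE of the fit and open symbols have an adjusted p of 0.05 or more; DNAJA1 and DNAJB1 head their panels with 0.78 and 0.62 for sgMETTL1.3 and 0.81 and 0.61 for sgMETTL1.6, and DNAJC5B is lowest.

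Type C members are described by the place where each works, an arrangement chosen after their values were seen. Of the 23 tested, 6 rose and 8 fell over both guides, or 60.9% called against 59.4% of all genes tested. Those of mitochondria went both ways. DNAJC11 (ENSG00000007923.15, minus strand of chromosome 1, 6634168 to 6701924), an outer membrane protein tied to the cristae-organising complex, had 91.6 and 91.1 TPM in sgMETTL1.3 libraries and 83.0 and 82.5 TPM in sgMETTL1.6 libraries, against 57.7 and 62.1 TPM in sgNS libraries. It rose by a log2 change of 0.53 ± 0.038 (SE, limma, adjusted p = 1.11e-07). DNAJC30, an inner membrane protein that takes part in the repair of complex I, had 8.54 and 8.57 TPM with sgMETTL1.3 and 7.18 and 8.13 TPM with sgMETTL1.6, against 6.06 and 6.83 TPM in sgNS libraries (log2 0.29, adjusted p = 0.0033). That call was lost without sgNS replicate 1 (log2 0.21, adjusted p = 0.0674).

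DNAJC19, the J protein of the motor that pulls precursors through the inner membrane with HSPA9, fell. It had 32.9 and 34.5 TPM in sgMETTL1.3 libraries and 35.9 and 34.3 TPM in sgMETTL1.6 libraries, against 39.4 and 39.4 TPM in sgNS libraries (log2 -0.19 ± 0.043, SE, limma, adjusted p = 0.0017). All guide libraries were below both controls, and GENCODE 29 lists 9 pseudogenes of this gene that could share its reads. DNAJC15, its relative in the same membrane, was not called, at 9.82 and 8.49 TPM with sgMETTL1.3 and 9.60 and 9.73 TPM with sgMETTL1.6, against 9.42 and 8.63 TPM in sgNS libraries (log2 0.053, adjusted p = 0.521).

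Among type C members of the endoplasmic reticulum, DNAJC1 and DNAJC10 fell and DNAJC14 rose. DNAJC1 (ENSG00000136770.10, minus strand of chromosome 10, 21756537 to 22003769), a membrane protein whose J domain faces the lumen and recruits the HSP70 HSPA5, had 42.8 and 42.2 TPM in sgMETTL1.3 libraries and 40.1 and 39.2 TPM in sgMETTL1.6 libraries, against 53.5 and 53.2 TPM in sgNS libraries. It fell by 0.37 on the log2 scale (SE 0.038, limma, adjusted p = 3.21e-06), with replicates within 1 TPM of each other in every group. DNAJC10, a disulphide reductase that unpicks misfolded proteins, had 55.8 and 55.0 TPM with sgMETTL1.3 and 52.7 and 49.1 TPM with sgMETTL1.6, against 61.3 and 60.9 TPM in sgNS libraries (log2 -0.20 ± 0.040, SE, adjusted p = 0.00088). DNAJC14, a membrane protein that helps receptors leave this compartment, had 55.96 and 56.0 TPM with sgMETTL1.3 and 48.2 and 49.1 TPM with sgMETTL1.6, against 43.1 and 45.1 TPM in sgNS libraries (log2 0.24 ± 0.039, SE, adjusted p = 0.00016). The guides did not overlap each other for this gene, and both were above the controls.

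DNAJC18, which is close in sequence to DNAJB12 and DNAJB14, had 3.68 and 3.41 TPM in sgMETTL1.3 libraries and 4.45 and 4.89 TPM in sgMETTL1.6 libraries, against 5.02 and 4.68 TPM in sgNS libraries. It was called over both guides (log2 -0.21, limma, adjusted p = 0.0323) although sgMETTL1.6 and control libraries overlapped, and the call was lost in 6 alternatives. Adjusted p was 0.216 without sgNS replicate 1, 0.0626 without sgNS replicate 2, 0.0781 without sgMETTL1.3 replicate 2 and 0.0792 without sgMETTL1.6 replicate 1.

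DNAJC2 and DNAJC9 act on the ribosome and on histones, and both rose. DNAJC2 (ENSG00000105821.14, minus strand of chromosome 7, 103312474 to 103344873), the J protein of the ribosome-associated complex, meets nascent chains together with HSPA14. It had 85.9 and 80.7 TPM in sgMETTL1.3 libraries and 79.6 and 79.6 TPM in sgMETTL1.6 libraries, against 65.96 and 63.9 TPM in sgNS libraries (log2 0.32 ± 0.038, SE, limma, adjusted p = 9.89e-06). Its partner HSPA14 rose as well (log2 0.24, adjusted p = 0.00076). Partner and member did not always move alike. HSPA9, named above with DNAJA3 and DNAJC19, fell with each guide (log2 -0.42 over both, limma, adjusted p = 8.31e-08). DNAJC19 was also called lower with each guide, whereas DNAJA3 was called lower with sgMETTL1.6 alone. HSPA5, named above with DNAJC1, rose while DNAJC1 fell (log2 0.38, adjusted p = 6.03e-08). DNAJC9, a chaperone of histones H3 and H4, had 99.5 and 100 TPM with sgMETTL1.3 and 93.3 and 97.4 TPM with sgMETTL1.6, against 85.0 and 88.9 TPM in sgNS libraries (log2 0.16, adjusted p = 0.0015). DNAJC21, which works in maturation of the large ribosomal subunit, was not called, at 24.9 and 24.0 TPM with sgMETTL1.3 and 22.5 and 22.5 TPM with sgMETTL1.6, against 24.7 and 23.7 TPM in sgNS libraries (log2 -0.042, adjusted p = 0.45).

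The 2 members linked to splicing moved in opposite directions. DNAJC8 had 398 and 403 TPM in sgMETTL1.3 libraries and 406 and 396 TPM in sgMETTL1.6 libraries, against 364 and 361 TPM in sgNS libraries (log2 0.15 ± 0.026, SE, limma, adjusted p = 0.00036). The rise was small but all 4 guide libraries were above both controls. DNAJC17 had 28.9 and 30.9 TPM with sgMETTL1.3 and 30.96 and 29.6 TPM with sgMETTL1.6, against 33.5 and 39.2 TPM in sgNS libraries (log2 -0.26 ± 0.059, SE, adjusted p = 0.0018). Its controls lay further apart than its guide libraries did, and without sgNS replicate 2 the fall was no longer called (log2 -0.15, adjusted p = 0.0636).

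DNAJC5B and DNAJC5 are cysteine string proteins, which sit on vesicle membranes and chaperone the release machinery. DNAJC5B was called and DNAJC5 was not, and the difference between these genes was not tested. DNAJC5B (ENSG00000147570.9, plus strand of chromosome 8, 66021560 to 66100526), known mainly from testis, had 2.74 and 2.72 TPM in sgMETTL1.3 libraries and 2.85 and 2.2 TPM in sgMETTL1.6 libraries, against 5.39 and 4.76 TPM in sgNS libraries. All 4 guide libraries were far below both controls. It fell by 0.75 on the log2 scale (SE 0.092, limma, adjusted p = 1.48e-05), and by 0.40 with a pseudocount of 5. DNAJC5, the widely expressed form at a far higher level, was not called over both guides, with 124 and 128 TPM for sgMETTL1.3 and 110.1 and 112 TPM for sgMETTL1.6, against 117 and 117 TPM for sgNS (log2 0.015, adjusted p = 0.712).

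DNAJC7 and DNAJC4 fell as well. DNAJC7, which hands clients between HSP70 and HSP90, had 137 and 133 TPM in sgMETTL1.3 libraries and 137 and 134 TPM in sgMETTL1.6 libraries, against 146 and 149 TPM in sgNS libraries (log2 -0.12, limma, adjusted p = 0.0049). DNAJC4 had 46.2 and 49.0 TPM with sgMETTL1.3 and 48.1 and 50.2 TPM with sgMETTL1.6, against 57.7 and 53.7 TPM in sgNS libraries (log2 -0.20, adjusted p = 0.0018). Each lost its call without a control: DNAJC7 without sgNS replicate 2 (log2 -0.11, adjusted p = 0.0633) and DNAJC4 without sgNS replicate 1 (log2 -0.15, adjusted p = 0.052).

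The remaining tested type C members were not called over both guides. DNAJC16 came nearest, with all guide libraries above both controls at 13.2 and 12.4 TPM with sgMETTL1.3 and 11.7 and 11.7 TPM with sgMETTL1.6, against 11.0 and 11.2 TPM in sgNS libraries (log2 0.13, limma, adjusted p = 0.0573). It passed after quantile normalization, with no variance trend and with the replicate number as a block (adjusted p from 0.0218 to 0.0438). DNAJC13, an endosomal sorting protein, had a log2 change of -0.016, DNAJC24, which takes part in making diphthamide on elongation factor 2, one of -0.041, and DNAJC27, which carries a small GTPase domain, one of -0.045. DNAJC25 and the read-through gene DNAJC25-GNG10 share exons, so that the division of reads between them is uncertain. DNAJC25 was at 7.30 to 7.70 TPM in guide libraries and 7.45 and 7.53 TPM in sgNS libraries. DNAJC25-GNG10 was at 5.11 to 6.40 TPM in guide libraries, against 8.87 and 5.82 TPM in sgNS libraries (log2 -0.25, adjusted p = 0.096). Its control libraries disagreed. DNAJC25-GNG10 was called with the replicate number as a block (limma, adjusted p = 0.0252). The log2 change was -0.51 without sgNS replicate 2 and -0.31 without sgMETTL1.3 replicate 1. Over all alternatives it ran from -0.51 to 0.021, so that its direction was not settled.

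**Figure D4:**
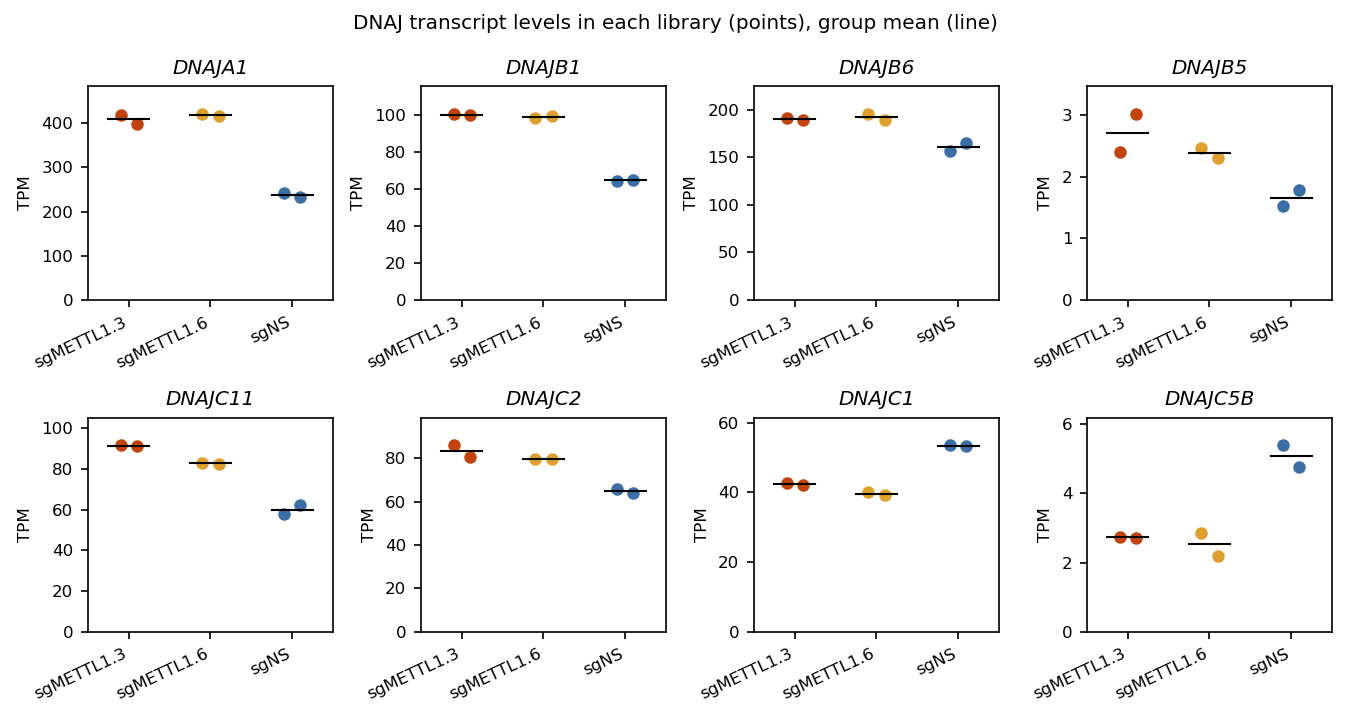
TPM (vertical, from 0) of 8 members in each library (points) with the group mean (line), for sgMETTL1.3, sgMETTL1.6 and sgNS. In DNAJA1, DNAJB1, DNAJB6, DNAJB5, DNAJC11 and DNAJC2 the 4 guide libraries stand above both controls, and in DNAJC1 and DNAJC5B below them. Of the 34 tested members, 12 stood above in this way, 9 stood below and 13 overlapped. Of all genes tested, 32.9% stood above and 27.3% below.

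The 8 members under the mean of 1 TPM were DNAJB3, DNAJB7, DNAJB8, DNAJB13, DNAJC5G, DNAJC6, DNAJC12 and DNAJC22, several of them known from testis or brain. DNAJB3 and DNAJB8 were listed at 0 in every library. DNAJB7 reached at most 0.54 TPM, DNAJB13 0.47 TPM, DNAJC6 (auxilin, which uncoats clathrin vesicles) 0.26 TPM, and DNAJC5G and DNAJC22 0.03 TPM each. DNAJC12, a co-chaperone of the aromatic amino acid hydroxylases, was singled out after its values were seen, at 0.06 and 0.12 TPM in sgMETTL1.3 libraries and 0.33 and 0.30 TPM in sgMETTL1.6 libraries, against 1.08 and 1.05 TPM in sgNS libraries. In the fit with no filter on low values its log2 change was -0.79 (SE 0.036, limma, adjusted p = 0.00010), and the depth behind such low levels is unknown.

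Each guide was also set against the same 2 control libraries, so the comparisons are not independent. With sgMETTL1.3, 14 members rose and 9 fell, 67.6% of the 34 tested against 58.5% of all genes tested (34.3% higher and 24.2% lower). With median-ratio scaling, or with ribosomal protein genes left out of the total, the split for sgMETTL1.3 was 10 higher and 10 lower. In the main fit the median log2 change of all genes tested was 0.043 with sgMETTL1.3 and 0.0006 with sgMETTL1.6. With sgMETTL1.6, 11 rose and 9 fell, 58.8% against 51% of all genes tested (25.7% higher and 25.3% lower). Called the same way with each guide were 11 members higher and 7 lower. DNAJA3 and DNAJB12 were called lower only with sgMETTL1.6, and DNAJB14 and DNAJC18 only with sgMETTL1.3. How many of all genes tested were called alike with each guide was not counted. Without sgNS replicate 1, fewer members were called higher with sgMETTL1.6, and fewer of all genes tested were called too. For DNAJA1 the log2 change was 0.78 ± 0.035 with sgMETTL1.3 and 0.81 ± 0.035 with sgMETTL1.6, and for DNAJB1 0.62 and 0.61 (SE from the fit).

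Set directly against each other, the guides differed in 6 of the 34 members, 17.6% against 23% of all genes tested (7.23% higher and 15.8% lower), 2 of them higher and 4 lower in sgMETTL1.6 libraries. The split was 2 and 2 after quantile normalization, median-ratio scaling or removal of ribosomal protein genes. DNAJA3 and DNAJC11 were then no longer called (limma, adjusted p from 0.0583 to 0.153). Over all genes tested the median log2 difference between the guides was -0.050 in the main fit, with 3892 genes positive and 7019 negative. The part of this shift in the members' split was not tested. DNAJC14 (log2 -0.20, limma, adjusted p = 0.0086), DNAJC5 (-0.19, adjusted p = 0.0046), DNAJA3 (-0.16, adjusted p = 0.0195) and DNAJC11 (-0.14, adjusted p = 0.0376) were lower in sgMETTL1.6 than in sgMETTL1.3 libraries. DNAJC18 (0.32, adjusted p = 0.0211) and DNAJB4 (0.21, adjusted p = 0.0416) were higher. DNAJC5 alone kept its call whichever library was left out. DNAJC14 lost its call without sgMETTL1.3 replicate 2 (log2 -0.20). For the other 4 genes 2 to 4 such fits lost the call, and DNAJC11 lost it in every fit that left out a guide library. Fits without an sgNS library leave the difference between the guides as it was. For DNAJA1 the difference between guides was 0.032 ± 0.035 and for DNAJB1 -0.019 on the log2 scale (adjusted p = 0.54 and 0.748), each no larger than its SE.

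The HSP70 partners of these proteins were described from lists of genes chosen by function. HSPA8, the constitutive cytosolic HSP70, had 2464 and 2426 TPM in sgMETTL1.3 libraries and 2330 and 2267 TPM in sgMETTL1.6 libraries, against 792 and 820.0 TPM in sgNS libraries. Set beside it, DNAJA1 stood at 16.4 to 18.3 TPM per 100 TPM of HSPA8 in guide libraries, against 30.6 and 28.4 in sgNS libraries. DNAJB1 stood at 4.08 to 4.39 per 100 TPM of HSPA8 in guide libraries, against 8.13 and 7.94 in sgNS libraries. Relative to HSPA8 both were therefore lower in every guide library than in either control, and no test was made of this ratio. Over the list of HSP70 and HSP110 proteins, 8 of 13 tested rose and 3 fell (61.5% and 23.1%, against 32.6% and 26.8% of all genes tested), with a median log2 change of 0.26 beside 0.023 for all genes tested. HSPH1, an HSP110 exchange factor, rose (log2 1.204, limma, adjusted p = 3.6e-11), and HSPA13, an HSP70 of microsomes, fell (log2 -1.24, adjusted p = 3.6e-10).

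Among exchange factors and other HSP70 co-chaperones, 9 of 13 tested rose and 1 fell (69.2% and 7.69%, against the same 32.6% and 26.8%), with a median log2 change of 0.15. GRPEL2, an exchange factor of mitochondrial HSP70, was the one that fell (log2 -1.29, limma, adjusted p = 1.07e-10). STIP1, which bridges HSP70 and HSP90, rose (log2 0.46, adjusted p = 1.23e-08), as did BAG2, an HSP70 co-chaperone (log2 0.49, adjusted p = 3.9e-07). Of 7 J proteins outside the name rule, 3 rose and 2 fell, or 71.4% called against 59.4% of all genes tested. The endoplasmic reticulum proteins SEC63 (log2 -0.50, adjusted p = 1.73e-07) and DNAJB9 (log2 -0.72, adjusted p = 4.24e-07) fell, and DNAJB11 rose (log2 0.16, adjusted p = 0.00035). Of the heat shock factors, HSF1 rose, at 93.1 to 108 TPM in guide libraries against 82.8 and 86.4 TPM in sgNS libraries (log2 0.25, adjusted p = 4.03e-05), HSF2 fell slightly (log2 -0.11, adjusted p = 0.0315) and HSF4 was not called (log2 -0.057, adjusted p = 0.66).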

How the data were processed

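Poly(A) RNA of 6 Mono-mac-6 samples was sequenced from stranded libraries, per the labels' protocols. The authors deposited TPM per gene, made with RSEM 1.2.31 on GRCh38, per the submitters' processing notes. No aligner, annotation or strand setting is given in the labels or notes. TPM keeps no read counts, so depth per library is unknown and no counting interval was computed.

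The 10911 of 18806 genes averaging 1 TPM or more were put on the log2(TPM + 1) scale. All 6 libraries, in 3 groups of 2, entered 1 fit with limma 3.58.1 (R 4.3.3) with a mean-variance trend, and p-values were adjusted by the Benjamini-Hochberg method over all 10911 genes, with a threshold of 0.05. A fold change on this scale understates changes of low genes. In data simulated from the levels and spread of these genes, 200 of 10911 genes were changed. The comparison of both guides with sgNS recovered 98.5% of the 67 genes given a 1.2-fold change. It recovered 100% of those given a 1.5-fold (67) or a 2-fold (66) change, and called 25 of 10711 unchanged genes. The changed genes all lay well above the 1 TPM filter, so recovery of low genes such as DNAJB5 and DNAJC5B was not measured. Simulated noise was normal and independent between libraries. In the data 59.4% of genes were called, so these rates need not hold there.

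All members are accounted for: TPM per library is given for each tested type A and type B gene and for type C genes called the same way with each guide. From each partner list the 3 genes of lowest p are named. HSPA14, HSPA9 and HSPA5 are given besides, as partners of members described. Members and lists were chosen with earlier results of these data known. Positions are those of coding genes in GENCODE 29, found for 41 of the 42 members (all but DNAJB3), and promoters are from RefSeq (GRCh38.p14). The alternatives were other pseudocounts (0.1 and 5), no filter and a mean of at least 5 TPM, quantile normalization, median-ratio scaling, TPM without 75 ribosomal protein genes, no variance trend, the replicate number as a block, and each library left out in turn.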

Additional observations from a re-analysis of the deposited data

Results flagged for a closer look

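In 6 members the effect of sgMETTL1.6 differed from that of sgMETTL1.3 by the direct test between the guides (limma, adjusted p under 0.05), 17.6% of the 34 tested against 23% of all genes tested, and the cause was not tested. Of these, 5 lost the call when some 1 library was left out, and DNAJC5 did not. DNAJC14 (log2 difference -0.20), DNAJC5 (-0.19), DNAJA3 (-0.16) and DNAJC11 (-0.14) were lower in sgMETTL1.6 than in sgMETTL1.3 libraries. DNAJC18 (0.32) and DNAJB4 (0.21) were higher. DNAJC5 stood on either side of the controls, at 110.1 and 112 TPM in sgMETTL1.6 libraries and 124 and 128 TPM in sgMETTL1.3 libraries, with 117 and 117 TPM in sgNS libraries. Against sgNS it was not called with sgMETTL1.6 (log2 -0.078, limma, adjusted p = 0.0986) and was called with sgMETTL1.3 (log2 0.11, adjusted p = 0.0241). The sgMETTL1.3 call was lost after quantile normalization, median-ratio scaling or removal of ribosomal protein genes (log2 from 0.048 to 0.061). METTL1 mRNA also differed between the guides, at 11.2 and 11.7 TPM in sgMETTL1.6 libraries and 18.3 and 16.6 TPM in sgMETTL1.3 libraries.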

How the results depend on the processing

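Of the 22 members called over both guides, 13 were called in every alternative that tested them, 9 higher and 4 lower (DNAJC1, DNAJC5B, DNAJC10 and DNAJC19). That was 15 alternatives, or 14 for DNAJB5 and DNAJC5B, which are under the mean of 5 TPM. The share of all called genes that kept their call in this way was not counted, so the members' share has nothing to be set against. No change that was called reversed its direction, while members that were not called, such as DNAJB2 and DNAJB4, lay on either side of 0. Leaving out 1 library at a time gave 9 to 12 members higher, 7 to 11 lower and 4962 to 6458 genes called for both guides against sgNS. The same ranges were 10 to 14, 7 to 9 and 5117 to 6609 for sgMETTL1.3 against sgNS, and 6 to 11, 7 to 9 and 4266 to 5486 for sgMETTL1.6 against sgNS. For sgMETTL1.6 against sgMETTL1.3 they were 0 to 2, 1 to 4 and 1215 to 2476. These fits leave 1 group with a lone library, assumed to vary like the others. That last comparison, with 2 members higher, 4 lower and 2510 genes called, moved most under other settings. With no filter on low values it gave 1 higher, 2 lower and 1023 of 15671 genes called, where the main fit called 2510 of 10911. With no variance trend it gave 1 higher, 2 lower and 1409 of 10911 genes. A mean of at least 5 TPM gave 1 higher and 4 lower, since DNAJC18, at a mean of 4.355 TPM, was then not tested. Quantile normalization, median-ratio scaling and removal of ribosomal protein genes each gave 2 lower, and the cause was not tested. In the main fit the median log2 difference of all genes tested between the guides was -0.050. The labels do not say that equal replicate numbers pair the libraries, and the replicate differences of sgMETTL1.3 and sgNS correlated at -0.0050, of sgMETTL1.6 and sgNS at 0.207 and of sgMETTL1.6 and sgMETTL1.3 at 0.145. With the replicate number as a block, 13 members were higher and 12 lower for both guides (6976 genes called), 14 and 10 for sgMETTL1.3 (6916), 11 and 11 for sgMETTL1.6 (6175) and 3 and 6 between the guides (3615). The family median for both guides crossed 0, between -0.036 and 0.023 (0.023 without sgNS replicate 1). In that comparison the median of all genes moved by less than 0.1 under every scaling. With 2 libraries a group, 1 clone and unknown depth, small changes and low genes are least certain.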
